A study of Mus musculus with 42 samples.

Results

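The regions described here gained the histone mark H3K27ac away from gene starts within 1 h of lipopolysaccharide (LPS) and still carried it after 18 h. They are called lasting regions. They were chosen by their H3K27ac values in wild-type (WT) bone marrow-derived macrophages: the H3K27ac regions of the 9 WT libraries were merged on overlap, and a merged region was kept if it was found in all 3 WT libraries at 1 h, in all 3 at 18 h and in none at 0 h, with its mid-point more than 2500 bp from the transcription start site (TSS) of any protein-coding gene. This gave 672 lasting regions out of 58683 merged WT regions, of which 46561 were distal by the same distance. One further region met the rule on a scaffold without a protein-coding gene and was left out because it has no distance to a TSS.

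The macrophages came from male mice of 6 to 12 weeks and were differentiated for 7 days with L929-conditioned medium. WT mice were littermates of Nur77-KO mice (KO). The KO mice carry a whole-body deletion of Nr4a1, which encodes the nuclear receptor Nur77. It was made by crossing C57Bl6/J mice with a CMV promoter-driven Cre to mice with a loxP-flanked locus. For the latter the study's methods name no strain. The KO mice were bred on to lose the Cre, although the genotype label of the KO libraries reads cre. Cells of both genotypes were left untreated (0 h) or received 100 ng/ml LPS for 1 or 18 h, and each of these 6 groups has 3 H3K27ac libraries, 3 RNA polymerase II (Pol II) libraries and 1 input library without antibody, 42 in all. The labels do not say whether the 3 replicates came from separate mice, so the p-values below measure only the spread between these samples. In bulk chromatin, fewer cells with a mark and less mark per cell cannot be told apart.

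LPS is sensed by Toll-like receptor 4, which activates NF-kB and AP-1 transcription factors and, through secreted interferon, the STAT and IRF factors. H3K27ac is laid down by coactivators such as p300 and CBP at active promoters and enhancers, and enhancers that lack the mark in resting macrophages and gain it on stimulation are known as latent or de novo enhancers. Pol II is often found at active enhancers too, where it makes short unstable transcripts.

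Before the values, 7 stretches of these regions are shown as examples of the motif letters in members that the results turn on. The printed matches of Socs1 and Nlrc5 lie within the central 500 bp of their regions, to which the counts below are limited except where whole regions are named. Those of the others lie outside it and are not in the counts of the central 500 bp. Within a region, the stretch was picked for the most kinds of match and then the most matches. All are 160 bases, from anywhere in a region, of the plus strand of the mouse assembly GRCm38 (mm10), taken from RefSeq, and lie outside annotated exons. Capitals mark a match on either strand to NF-kB (GGANTTTCC or GGGANTTCC), to the interferon-stimulated response element ISRE (GAAANNGAA) or to AP-1 (TGANTCA). The first 2 hold an NF-kB match and lie near Il6 (chr5:29919090-29919249, intergenic) and in an intron of C3 (chr17:57220304-57220463).
Il6: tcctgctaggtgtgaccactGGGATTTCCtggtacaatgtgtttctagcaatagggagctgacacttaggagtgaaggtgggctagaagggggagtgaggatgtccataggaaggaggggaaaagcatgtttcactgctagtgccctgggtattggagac
C3: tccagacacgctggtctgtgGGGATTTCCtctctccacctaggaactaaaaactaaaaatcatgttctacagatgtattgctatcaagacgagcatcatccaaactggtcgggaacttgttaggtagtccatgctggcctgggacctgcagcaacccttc

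The next 4 hold an ISRE match, and they come from introns of Abr (chr11:76504284-76504443, with an NF-kB match as well), of Clec16a near Socs1 (chr16:10732693-10732852) and of Nlrc5 (chr8:94485490-94485649), and from intergenic sequence near Gbp7 (chr3:142524294-142524453, with an AP-1 match). In the Socs1 and Nlrc5 stretches a pair of overlapping ISRE matches forms a tandem repeat.
Abr: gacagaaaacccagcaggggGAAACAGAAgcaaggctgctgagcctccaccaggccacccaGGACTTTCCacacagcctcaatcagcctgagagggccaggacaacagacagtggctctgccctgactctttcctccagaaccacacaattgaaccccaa
Socs1: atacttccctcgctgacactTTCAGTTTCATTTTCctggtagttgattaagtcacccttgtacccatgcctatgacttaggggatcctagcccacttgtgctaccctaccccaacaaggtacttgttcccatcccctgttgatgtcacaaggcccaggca
Nlrc5: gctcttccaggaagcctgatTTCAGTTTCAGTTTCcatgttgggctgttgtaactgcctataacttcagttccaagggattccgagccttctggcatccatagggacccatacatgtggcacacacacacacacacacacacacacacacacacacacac
Gbp7: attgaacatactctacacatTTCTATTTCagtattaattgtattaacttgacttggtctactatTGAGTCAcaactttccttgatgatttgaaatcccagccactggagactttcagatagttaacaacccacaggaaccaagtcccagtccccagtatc

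The last stretch holds an AP-1 match in the intergenic region nearest to Tlr1 (chr5:64907430-64907589), the gene of a Toll-like receptor for bacterial lipopeptides.
Tlr1: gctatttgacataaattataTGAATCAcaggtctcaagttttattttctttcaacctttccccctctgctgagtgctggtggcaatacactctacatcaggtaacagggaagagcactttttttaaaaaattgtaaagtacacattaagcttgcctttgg

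Over all lasting regions the NF-kB letters were more frequent than in distal regions at large. Within the central 500 bp, 75 of the 669 lasting regions on assembled chromosomes (11.2%) held an NF-kB match, against 4.55% of 46537 distal WT regions and 4.45% of 14688 distal regions that were found in all 9 WT libraries. The share was 12.3% in 1401 distal regions that were found only at 1 h and 4.59% in 1199 found only at 18 h. Within the lasting regions it was 13.6% of the 169 whose mean H3K27ac was more than 2-fold higher at 1 h than at 18 h, and 7.10% of the 183 more than 2-fold higher at 18 h. ISRE letters were in 31.8% of lasting regions against 21.3% of distal regions, 25.4% of those found only at 1 h and 31.7% of those found only at 18 h. AP-1 letters were in 23.5% of lasting and of all distal regions. Letters of PU.1 (GAGGAAGT), the factor that marks macrophage enhancers, were in 4.48% against 8.25%, with 5.64% in regions found only at 1 h and 5.25% in those found only at 18 h, and those of the Nur77 response element NBRE (AAAGGTCA) in 3.14% against 2.94%. Over whole regions, NF-kB letters were in 32.1% of lasting regions, 16.9% of distal regions and 30.1% of those found in all 9 WT libraries. ISRE letters were in 70.1%, 51.7% and 75.5%, and AP-1 letters in 63.4%, 52.6% and 76.0%. Wider regions hold more letters, and the median widths of these sets were 2423, 1601 and 3623 bp. These shares are descriptions of sequence and were not tested.

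Repeats carried part of these matches. Outside sequence that the assembly marks as repeats, NF-kB letters stayed in 9.27% of lasting regions against 3.80% of distal regions, and ISRE letters in 16.7% against 11.4%. Of the 75 NF-kB matches, 6 sat in near-identical surroundings, with at most 6 mismatches over 39 bp, in the regions nearest to Sgk3, Gpatch2, Gfm2, Incenp, Ralgapa2 and Bcl2l15. These surroundings were chosen as the largest such group among the lasting regions, so their number there is set in part by that choice. Of all distal regions 21 had them, these 6 included. Their sequence is not printed because it is a repeated element.

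**Figure D1:**
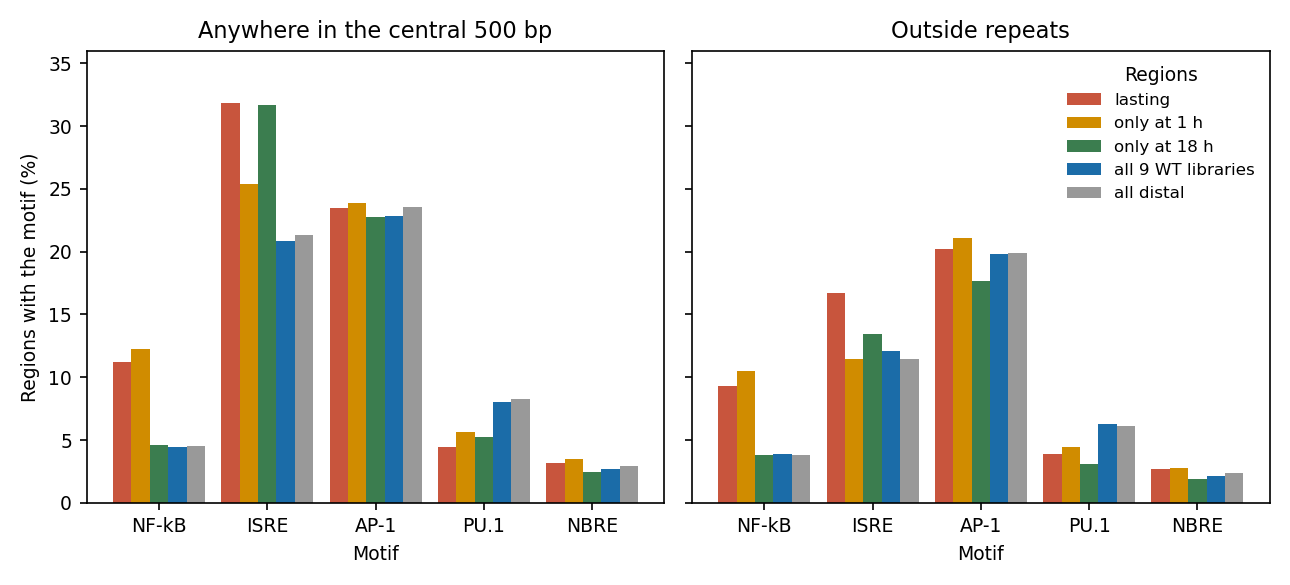
The bars give the percentage of regions with each motif in the central 500 bp (left) and outside repeats (right) for lasting regions, regions found only at 1 h or only at 18 h, regions found in all 9 WT libraries and all distal regions. On the left NF-kB is at 11.2% in lasting regions and 4.55% in all distal regions, whereas the AP-1 bars run from 22.8% to 23.9%. Outside repeats the AP-1 bars run from 17.7% to 21.1%.

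In position the lasting regions were close to distal regions at large. The mid-point was in an intron in 375, in intergenic sequence in 280 and in an exon in 17. The distance to the nearest protein-coding TSS ranged from 2739 to 726267 bp with a median of 23760 bp. Of all distal regions 53.3% were intronic and 43.3% intergenic, against 55.8% and 41.7% here, and their median distance was 23690 bp. The widths ran from 722 to 12140 bp with a median of 2418 bp. The 672 regions had 601 nearest genes, and 65 of these genes were nearest to at least 2 of them. The 6 genes nearest to 3 lasting regions each were Birc3, which encodes the apoptosis inhibitor cIAP2, Edn1, the gene of endothelin 1, Gpd2, the mitochondrial glycerol phosphate dehydrogenase, the adhesion scaffold gene Lpp, the chromatin reader gene Phf21a and the raft protein gene Rftn1.

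A value below is the normalized tag count of a library, that is tags per 10 M aligned tags (M for 1e+06), in the region. It is 0 where the authors' search found no region. Because the rule used the WT H3K27ac values, those values are given as description without a test. By the rule every lasting region was at 0 in the 3 WT libraries at 0 h. The median lasting region held 30.7, 34.4 and 31.1 normalized H3K27ac tags in the WT libraries at 1 h and 30.3, 34.0 and 33.0 at 18 h, so that the middle of the distribution was the same at both times. Single regions differed widely between the times. The mean at 18 h was more than 2-fold above that at 1 h in 183 regions and more than 2-fold below it in 169, and 320 stayed within 2-fold. The 3 values at 18 h were all above the 3 at 1 h in 247 regions (36.8%) and all below them in 227 (33.8%). These shares were 24.2% and 22.5% over all distal regions and 45.2% and 34.6% over those found in all 9 WT libraries.

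The regions with the highest values at 18 h were several times lower at 1 h. One with its mid-point in an exon of Il2ra, nearest to the TSS of Il15ra (chr2:11687249-11694010), whose product presents interleukin 15, held 204, 236 and 242 normalized H3K27ac tags at 1 h and 659, 703 and 670.5 at 18 h. An intergenic region near Rnf225 (chr7:12934817-12940659) went from 52.2, 56.7 and 54.6 to 667, 688 and 659, and one near the carbonic anhydrase gene Car13 (chr3:14665775-14675440) from 123, 135 and 123 to 572, 569 and 530.4. Both groups of 3 are far apart in each case. The steepest example was the intronic region of the ubiquitin ligase gene Ubr4: it held 8.89, 8.91 and 6.23 tags at 1 h (the lowest of any lasting region at 1 h were 7.03, 6.77 and 5.99 in these libraries) and 411, 443 and 412 at 18 h. An intron of Herc1, another large ubiquitin ligase gene, behaved alike with 10.4, 15.3 and 12.2 tags at 1 h and 312, 327 and 301 at 18 h.

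Among early regions the highest was in an intron of Arhgap15 (chr2:43865561-43874095), a Rac GTPase-activating protein. It held 485, 540 and 459 tags at 1 h and 30.3, 44.6 and 38.2 at 18 h. The region near Btla, an inhibitory receptor gene (chr16:45282467-45292604), held 361, 413 and 385 tags at 1 h against 35.2, 66.3 and 43.0 at 18 h. Near Il12b, the gene of the shared subunit of interleukins 12 and 23 (chr11:44387021-44393721), there were 275, 242 and 218 tags at 1 h, and between 19.3 and 27.6 in each library at 18 h. The region 37860 bp from Il1b held 125, 154 and 138 tags at 1 h and 29.3, 46.1 and 46.4 at 18 h. Regions whose means stayed within 2-fold include one 100139 bp from Ptgs2, the cyclooxygenase 2 gene (242, 239 and 203 tags at 1 h and 140.4, 151 and 135 at 18 h), and one by the serum amyloid gene Saa3 (95.1, 92.3 and 93.4, then 107, 99.4 and 103).

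**Figure D2:**
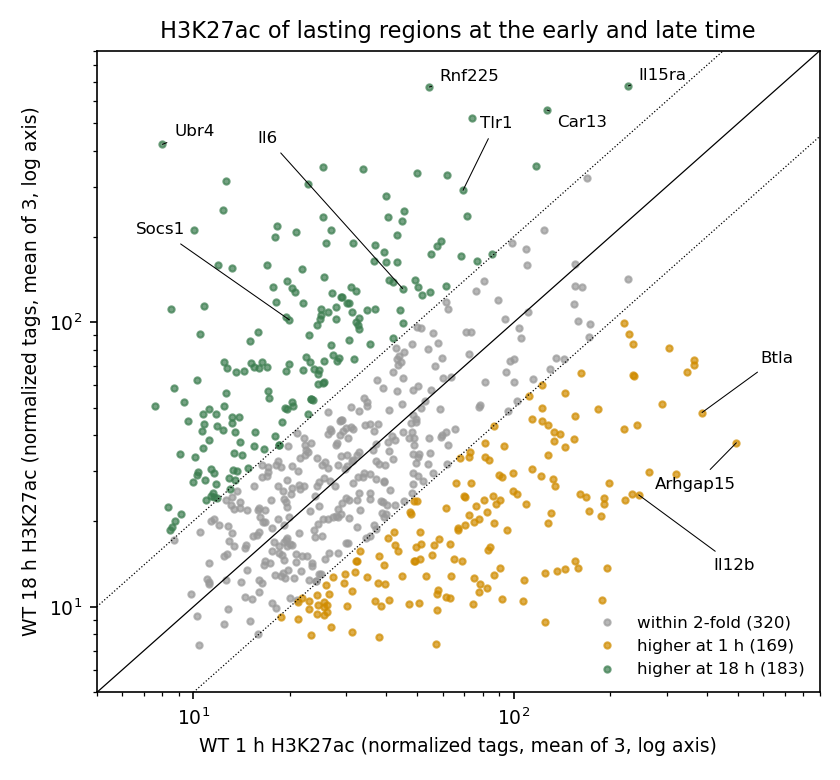
Each point is 1 of the 672 lasting regions, with the mean of 3 WT libraries at 1 h on the x axis and at 18 h on the y axis, in normalized H3K27ac tags on log axes, and dotted lines mark a 2-fold difference. 169 regions lie below the lower line and 183 above the upper line, with Arhgap15, Btla and Il12b among the former and Ubr4, Rnf225 and Socs1 among the latter.

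The edges of the rule are given by their values. A further 247 distal regions were found in all 6 WT libraries with LPS and in 1 of 3 at 0 h, with a median of 35.3 normalized tags at 1 h, against 31.4 in the lasting regions. One of them, near the transporter gene Slco3a1 (chr7:74691038-74699989), held 7.5 tags in 1 library at 0 h and 885, 942 and 878 at 18 h. Another 391 were found in 5 of the 6 and in none at 0 h, with a lower median of 11.8 tags. By distance, the lasting regions closest to a TSS were in an intron of 4930595D18Rik and Traf3, 2739 bp from the start of the former, and in C3 2879 bp from its start, and 51 regions that met the rest of the rule lay within 2500 bp of a TSS.

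The KO H3K27ac libraries, which the rule did not use, held most lasting regions with LPS, and replicates 2 and 3 held fewer at 1 h than at 18 h. Of the 672 regions, the KO libraries held 630, 411 and 496 at 1 h, then 598, 663 and 653 at 18 h. At 0 h they already held 74, 87 and 109. As shares these are 61.2% to 93.8%, 89.0% to 98.7% and 11.01% to 16.2%, whereas of all distal regions the KO libraries held 56.6% to 64.1% at 1 h, 54.3% to 60.5% at 18 h and 64.3% to 67.6% at 0 h. At both times with LPS 492 were found in at least 2 of 3 KO libraries, 369 were found in all 6 and 520 in no KO library at 0 h. The KO libraries were the deeper ones, with 23.6 to 55.4 M tags against 13.5 to 31.1 M in WT, and a deeper library can show weaker regions. Under a common floor on tag density, 180 instead of 492 lasting regions counted as found in KO. That floor removed WT regions too: single WT libraries with LPS kept 470 to 632 of the 672, and 327 were overlapped by a region that met the rule under the floor.

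KO replicate 1 stood apart from the other two at both times. At 1 h it held a median of 27.9 normalized tags over the lasting regions, close to the WT libraries, whereas replicates 2 and 3 held 9.55 and 14.85. At 18 h it held 30.68 and the others 48.5 and 39.62. Without replicate 1, 393 instead of 492 lasting regions were found in both remaining KO libraries at both times.

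**Figure D3:**
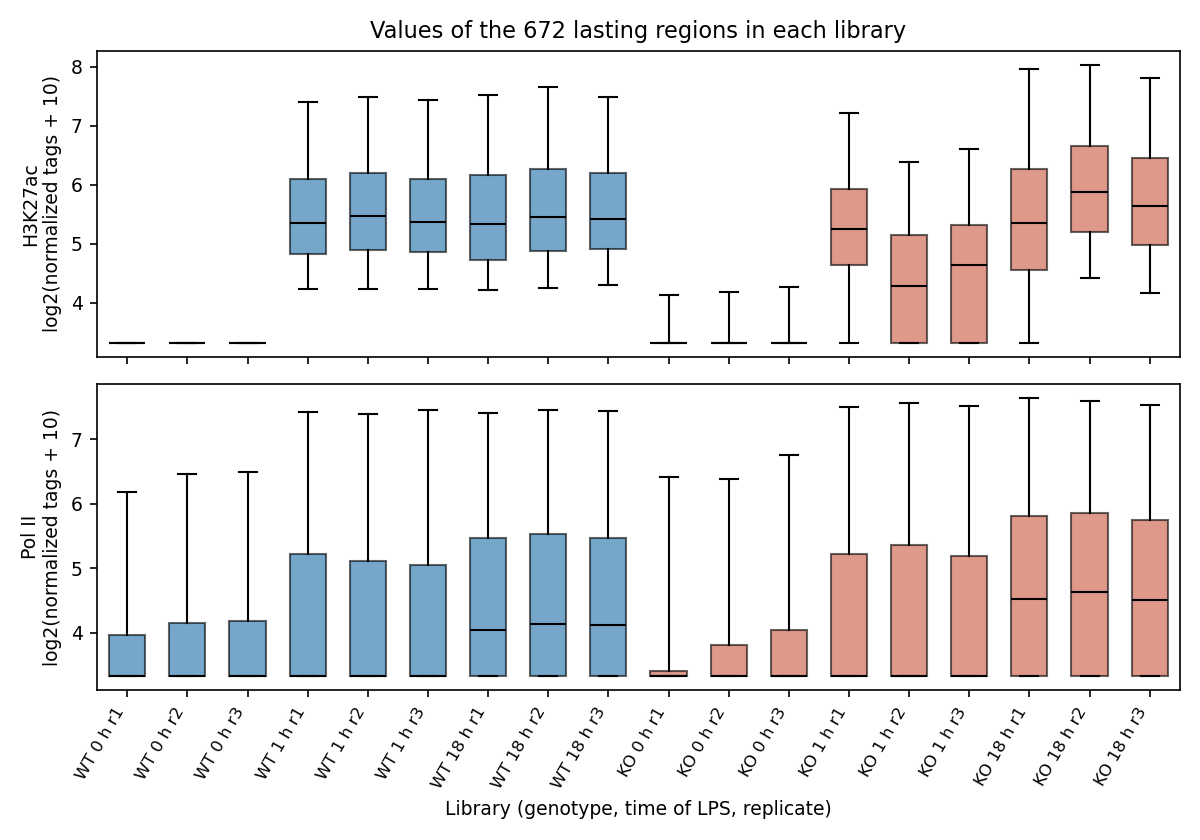
Boxes give the quartiles and whiskers the 5th and 95th percentiles of log2(normalized tags + 10) over the 672 lasting regions in each of the 18 H3K27ac (top) and 18 Pol II (bottom) libraries, WT in blue and KO in red. Replicate 1 of KO at 1 h sits at the level of the WT libraries, above its own group, and the Pol II boxes at 18 h are higher in all 3 KO libraries than in WT.

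In KO the gain of H3K27ac was tested with limma over all WT-merged regions, on log2(normalized tags + 10), with a call at an adjusted p under 0.05 and an absolute log2 change over 1. At 1 h against 0 h, 333 of the 672 lasting regions rose and 0 fell, and in all 333 the values of the 2 groups did not overlap. Over all tested regions 8.93% were called higher and 13.9% lower. The test was open to 509 lasting regions, those found in at least 2 of 3 KO libraries at 0 h or 1 h, and as most were at 0 at 0 h they could hardly differ in the other direction. The 0 is therefore set by the filter in large part. At 18 h against 0 h, 554 of 663 tested lasting regions rose and 0 fell, with no overlap of the groups in 547. Over all tested regions 12.3% were called higher and 24.1% lower. In the 78 lasting regions that were found in at least 2 of 3 KO libraries already at 0 h, 19 (24.4%) rose at 1 h and 51 (65.4%) at 18 h. Of all regions found there at 0 h, 6.04% and 7.22% were called higher. These sets are not alike, since only 13 of the 78, against 84.7% of all regions found at 0 h, were high enough then to be called lower if they went to 0. Of the 13, 2 rose at 1 h and 10 at 18 h. The count at 1 h was 202 without replicate 3 of each group, and without KO 1 h replicate 1 alone 307 rose and 2 fell at 1 h and 560 rose at 18 h.

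From 1 h to 18 h in KO, 255 lasting regions rose and 20 fell, of which 230 and 20 had groups that did not overlap, against 10.5% called higher and 15.8% lower over all tested regions. Of the 666 tested, 169 were found in fewer than 2 of 3 KO libraries at 1 h, and of these 94 rose and none fell. In the other 497, 161 (32.4%) rose and 20 (4.02%) fell, against 6.60% and 18.1% of the 38843 regions found in at least 2 of 3 KO libraries at 1 h. The 20 that fell all belonged to the 169 regions that were early in WT, and 156 of the 183 late regions were among those that rose. The count of both directions, 275, depended on single replicates: it was 424 without replicate 1, 139 without replicate 2 and 135 without replicate 3. Without KO 1 h replicate 1 alone, 329 rose and 11 fell.

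The largest rises in KO from 1 h to 18 h were picked for their size. The Ubr4 region held 0, 0 and 13.4 tags in KO at 1 h and 397, 506 and 367 at 18 h, a log2 change of 5.02 ± 0.33 (SE, n = 3, adjusted p = 2.2e-05). The Herc1 region changed by 4.74 ± 0.32 (adjusted p = 2.2e-05). Near Il6, the gene of a cytokine of the acute phase, the region with the printed NF-kB match (chr5:29918923-29921948) held 7.56, 0 and 5.26 tags at 1 h and 221, 243 and 214 at 18 h, a log2 change of 4.08 ± 0.24 (adjusted p = 1.3e-05). In WT the same region was at 50.0, 35.6 and 49.3 at 1 h and at 132, 126 and 136 at 18 h, so all 3 KO values were lower at 1 h and higher at 18 h than all WT values. Among regions that fell in KO after 1 h, the one near Sgk1, a stress-induced kinase gene, went from 96.6, 50.1 and 45.65 to 0, 12.1 and 0 (log2 change -2.44 ± 0.36, adjusted p = 8.5e-04). The Arhgap15 region fell by 2.88 on the log2 scale (SE 0.76, adjusted p = 0.015), a call that was lost when replicate 2 or 3 was left out and with a pseudocount of 1.

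Side by side, KO values were more often below than above WT values at 1 h and more often above than below at 18 h. At 1 h all 3 KO values were below all 3 WT values in 308 lasting regions and above them in 9 (45.8% and 1.34%), and the KO mean was more than 2-fold below the WT mean in 350 (52.1%). Over all 46561 distal regions these shares were 8.04%, 12.9% and 16.5%, over the 14693 found in all 9 WT libraries 13.8%, 25.3% and 4.72%, and over the 1401 found only at 1 h in WT 37.1%, 1.71% and 56.5%. Leaving out KO replicate 1 raised the 350 to 460. At 18 h all KO values were below WT in 30 regions and above in 122, and the KO mean was more than 2-fold above the WT mean in 63 (4.46%, 18.2% and 9.38%). The shares were 10.2%, 5.01% and 15.8% over all distal regions and 26.3%, 6.43% and 2.4% over those found in all 9 WT libraries. They were 8.17%, 12.8% and 7.76% over the 1199 found only at 18 h. The choice of regions by high WT values fixes part of this order, so these counts are a description only. At the other end of the range, 40 lasting regions were found in all 3 KO libraries at 0 h. The one in an intron of Pgs1, a cardiolipin synthesis gene, held 13.3, 5.19 and 9.66 tags there, and the one in Pias1, an inhibitor of STAT signalling, 5.57, 11.9 and 8.76.

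Only 3 lasting regions were found in none of the 6 KO libraries with LPS. The highest, in an intron of Trim12a and nearest to the TSS of Trim5 (chr7:104298831-104303756), belongs to a cluster of antiviral TRIM genes. It held 8.14, 16.8 and 26.1 tags in WT at 1 h and 160.3, 150 and 165 at 18 h, and was listed at 0 in all 9 KO libraries. A region near the calcium/calmodulin kinase gene Camk2d (chr3:126857007-126859034) held 55.9, 55.3 and 69.0 tags in WT at 1 h and 65.2, 66.0 and 59.2 at 18 h, also against 0 in KO. The third, in Bcl2l15, was low in WT, with 12.6 to 26.4 tags, and is one of the regions with the shared repeat. Trim genes of this cluster are near-identical copies, so values there are uncertain in both genotypes, and the part of read placement in the difference was not tested.

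Turned around, the same rule applied to the 9 KO libraries gave 499 regions, chosen by a rule added after the data were seen. Of these, 255 (51.1%) overlapped a lasting region of WT, and 257 (38.2%) of the lasting regions overlapped one of KO. Only 8 of the 499 were found in no WT library with LPS.

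**Figure D4:**
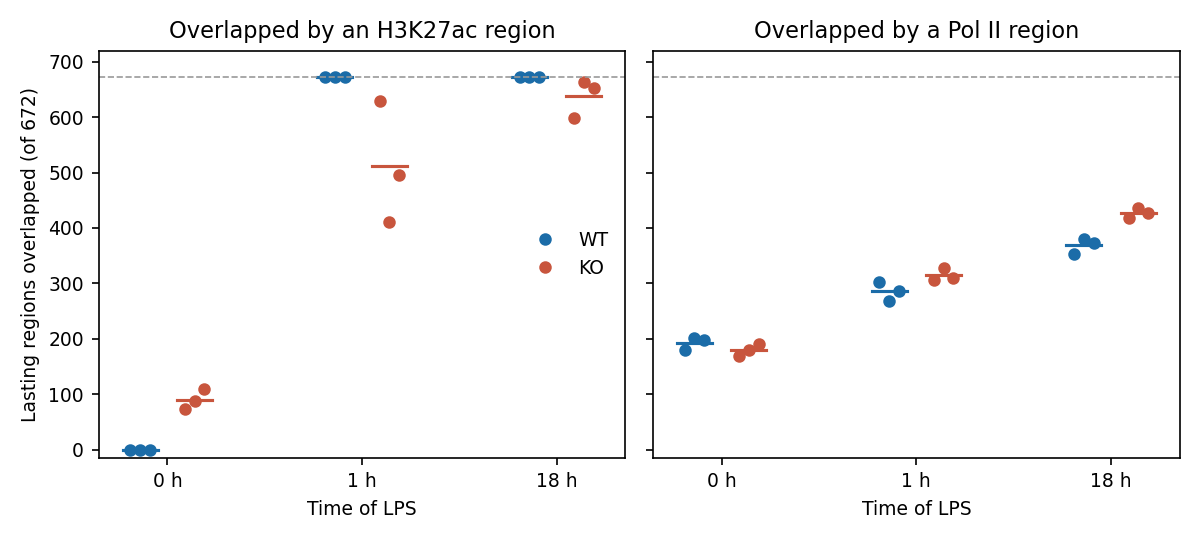
Points are single libraries and bars the mean of 3, and the y axis counts how many of the 672 lasting regions (dashed line) overlap an H3K27ac region (left) or a Pol II region (right) at each time, WT in blue and KO in red. WT H3K27ac is fixed at 0 and 672 by the rule, and KO reaches 411 to 630 at 1 h and 598 to 663 at 18 h. Pol II overlap goes from 169 to 201 regions at 0 h to 418 to 436 in KO at 18 h.

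Pol II was not used by the rule. In WT, Pol II regions overlapped 179, 201 and 197 of the 672 lasting regions at 0 h. The numbers were 303, 269 and 287 at 1 h, then 353, 381 and 373 at 18 h, with no overlap between the groups. As shares these are 26.6% to 29.9%, 40.0% to 45.1% and 52.5% to 56.7%. Distal regions at large showed another order, with 47.0% to 49.5% at 0 h, 33.0% to 35.0% at 1 h and 42.6% to 45.1% at 18 h. In KO the overlap was 25.2% to 28.4% at 0 h, 45.5% to 48.8% at 1 h and 62.2% to 64.9% at 18 h, so all KO libraries at 18 h were above all WT libraries. Over all distal regions the KO overlap at 18 h was 42.4% to 44.1%. Regions found only at 18 h had the same order as the lasting ones, with 53.3% to 56.4% in KO and 44.3% to 48.5% in WT. No Pol II region overlapped 113 lasting regions in any of the 18 libraries, and 102 were overlapped in all 18.

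Pol II followed the time at which the mark was highest. Of the 169 early regions, 105, 96 and 102 were overlapped by Pol II in WT at 1 h and 58, 68 and 68 at 18 h. Of the 183 late regions, 66, 60 and 62 were overlapped at 1 h and 144, 147 and 143 at 18 h. The shares in KO were in the same order, with 108 to 117 of the early and 64 to 70 of the late regions at 1 h, and 75 to 81 and 158 to 165 at 18 h.

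Pol II tags rose over more lasting regions than they fell. In WT at 1 h, 135 of 672 were called higher and 31 lower, whereas over all tested WT-merged regions 13.6% were called higher and 31.7% lower. At 18 h, 185 were higher and 12 lower, against 13.7% and 14.5%. In KO the counts were 162 and 24 at 1 h (background 15.4% and 27.7%) and 259 and 10 at 18 h (15.0% and 18.5%). Between 321 and 425 lasting regions were tested, and those without Pol II at 0 h could only rise. In the 194 that did have Pol II in at least 2 of 3 WT libraries at 0 h, 54 (27.8%) rose and 31 (16.0%) fell at 1 h, and 58 (29.9%) rose and 12 (6.19%) fell at 18 h. Of all regions with Pol II at 0 h, 9.83% rose and 34.2% fell at 1 h, and 9.78% rose and 16.1% fell at 18 h. At 1 h the median change over all tested regions was -0.51 on the log2 scale in WT. A region inside a broad Pol II domain takes that domain's density, so a gene body and an enhancer in it cannot be told apart.

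The strongest Pol II gain was near Gbp7, which encodes an interferon-induced guanylate-binding protein, in the region with the printed ISRE and AP-1 matches (chr3:142519143-142525828). Pol II was at 6.09, 5.38 and 0 normalized tags in WT at 0 h, at 1694, 1674 and 1746 at 1 h and at 1236, 1216 and 1242 at 18 h. The log2 change was 6.99 ± 0.15 at 1 h (SE, n = 3, adjusted p = 4.8e-15) and 6.52 ± 0.15 at 18 h (adjusted p = 2.1e-14). H3K27ac in the same region was at 43.3, 72.4 and 68.8 tags at 1 h in WT. The region near the neighbouring gene Gbp3 (chr3:142549609-142551320) had no Pol II at 0 h in WT, 434, 428 and 447 tags at 1 h and 95.2, 95.6 and 92.2 at 18 h.

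Other regions by interferon-response genes also gained Pol II. In an intron of Oasl2, from the oligoadenylate synthetase-like family, Pol II was at 39.5, 41.4 and 32.0 tags at 0 h, then 211, 246 and 237 at 1 h, then 471, 459 and 483 at 18 h (log2 change at 18 h 3.34 ± 0.12, adjusted p = 2.2e-12). In an intron of Nlrc5, the transactivator of MHC class I genes, it was at 27.6, 7.48 and 7.48 tags at 0 h, at 29.5, 29.9 and 24.3 at 1 h and at 80.9, 79.5 and 79.0 at 18 h (1.99 ± 0.24, adjusted p = 2.6e-06 at 18 h). Near Socs1, a feedback inhibitor of interferon and cytokine signalling, there was no Pol II region at 0 or 1 h, and at 18 h the values were 36.9, 34.6 and 27.8 tags (adjusted p = 1.2e-10). This is a late region of the mark as well, with 18.9, 21.0 and 19.9 H3K27ac tags at 1 h and 103, 105 and 97.9 at 18 h.

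Around cytokine and cytokine receptor genes the time course differed from region to region. Near Il12b Pol II was found at 1 h alone, at 75.0, 55.2 and 67.0 tags in WT and 60.5, 64.8 and 62.3 in KO (adjusted p = 2.8e-13 in WT). The Btla region likewise had Pol II in WT only at 1 h, at 156, 163 and 192 tags (adjusted p = 3.9e-13). By contrast, the region nearest to Il15ra went from 0 to 62.4, 64.0 and 70.5 at 1 h and 233, 260 and 261 at 18 h (adjusted p = 4.0e-15 at 18 h), and the Tlr1 region from 0 to 32.6, 29.7 and 38.0 and then 297, 293 and 299 (adjusted p = 1.5e-14). In an intron of C3, the central complement component, Pol II reached 130, 127 and 137 tags at 1 h and 104, 99.2 and 102 at 18 h from 0. Regions near Nr4a3 and Nr4a2, the receptors related to Nur77, and near Marcks had no Pol II region in any of the 18 libraries.

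Pol II also fell over lasting regions while the mark appeared. In an intron of Prkch whose nearest TSS is that of Hif1a, the gene of a hypoxia factor, Pol II was at 63.5, 56.4 and 73.1 tags at 0 h in WT and listed at 0 at 1 h (adjusted p = 3.4e-10). A region in Cdk6, which drives entry into the cell cycle, had 199, 232 and 258 tags at 0 h, then 527, 521 and 524 at 1 h, then 13.3, 65.2 and 15.8 at 18 h, that is a rise of 1.16 ± 0.30 (adjusted p = 2.7e-03) and then a change of -2.74 ± 0.30 against 0 h (adjusted p = 1.1e-06). Its H3K27ac was at 53.5, 56.6 and 58.8 tags at 18 h. A region by Bax was called lower as well, but 1 of its 3 values at 0 h (840, 23.3 and 26.5) stands far from the others.

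The comparison of the genotypes asks whether Pol II over these regions depends on Nur77. Before LPS 2 of 204 tested lasting regions were called higher in KO and 2 lower, against 0.650% and 0.679% of all tested regions. The higher ones lie near H1foo, at 102, 163 and 127 tags in WT and 425, 423 and 434 in KO (log2 difference 1.66 ± 0.13, adjusted p = 8.8e-07), and in Arid5b, at 30.3, 35.7 and 35.8 against 152, 43.4 and 118 (1.24 ± 0.26, adjusted p = 8.0e-03), where 1 KO value is near WT and the call was lost without replicate 1 or 3. The lower ones are in Fignl1 and Pdk1, both at low counts of 9.20 to 50.3 and 9.55 to 19.1 tags in WT and at most 0.712 in KO. Without replicate 3 the count was 2 instead of 4.

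At 1 h 22 of 331 tested lasting regions were called higher in KO and 10 lower, against 4.42% and 1.14% of all tested regions. This split depended on the scaling. The median difference over all tested regions was 0.21 on the log2 scale, and with every library centred on its median 5 were higher and 13 lower. The largest difference was near Gbp3, where KO Pol II was at 39.0, 38.4 and 39.8 tags against 434, 428 and 447 in WT (log2 difference -3.19 ± 0.27, adjusted p = 8.6e-07). By 18 h the order had turned, with 355, 122 and 375 tags in KO against 95.2, 95.6 and 92.2 (1.34 ± 0.27, adjusted p = 2.6e-03). In the Nlrc5 intron KO was at 5.89, 5.11 and 8.19 tags against 29.5, 29.9 and 24.3 (-1.21 ± 0.24, adjusted p = 1.3e-03), and by 18 h both genotypes had risen, KO to 93.4, 93.3 and 89.4. A region in Kcnab1 nearest to Ssr3 was higher in KO, with 30.5, 27.5 and 25.8 tags against 0 (adjusted p = 3.2e-07). It entered the test through KO, so it could only be called higher. The region was already marked by H3K27ac in KO at 0 h, at 52.7, 58.0 and 61.4 tags. Around Ccrl2, a chemoattractant receptor-like gene, KO held 263, 267 and 311 tags against 38.5, 262 and 34.2 in WT (1.79 ± 0.57, adjusted p = 0.025), where 1 WT library is at the KO level and the call was lost with centred libraries and without replicate 1 or 3.

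At 18 h the difference was larger and in 1 direction: 66 lasting regions were called higher in KO and 2 lower, whereas over all tested regions 2.13% were called higher and 1.86% lower. In all 68 the 3 values of one genotype were above or below the 3 of the other. Centring the libraries gave 69 and 2, and a pseudocount of 50 gave 7 and 1. Of the 430 tested, 59 had Pol II in fewer than 2 of 3 WT libraries and entered through KO, where they could hardly be lower, and 21 of these were among the 66. In the other 371, 45 (12.1%) were higher and 2 (0.539%) lower, against 1.29% and 1.96% of the 30182 regions with Pol II in at least 2 WT libraries. The median difference was 0.32 over the 430 tested lasting regions and -0.04 over all tested regions. Of the 66, 38 were among the 280 intergenic regions and 28 among the 375 intronic ones, and 30 were among the 183 late regions.

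Among the named regions that were higher in KO, the largest log2 difference was in an intergenic region near Prg4, the gene of lubricin, on chromosome 1 (chr1:150501784-150506723). KO Pol II was at 172, 182 and 174 tags against 15.3, 24.7 and 14.3 in WT (log2 difference 2.75 ± 0.30, adjusted p = 1.0e-05). H3K27ac there was at 516, 128 and 122 tags in KO and 46.6, 35.2 and 53.0 in WT. On the same chromosome, the region nearest to Ptgs2 held 22.6, 17.8 and 22.2 Pol II tags in KO at 18 h and 0 in WT (adjusted p = 8.5e-05). Being at 0 in WT, it entered the test through KO and could only be called higher. Near Ccne1, the cyclin E1 gene (chr7:38120345-38129298), no Pol II region was found at 0 or 1 h in either genotype, and at 18 h it was at 507, 495 and 494 tags in KO and 182, 183 and 195 in WT (1.37 ± 0.07, adjusted p = 3.2e-09). The Rnf225 region was at 461, 196 and 444 against 130.3, 125 and 135 (1.33 ± 0.21, adjusted p = 3.9e-04), and Ly75, the endocytic receptor DEC-205, at 288, 264 and 288 against 128, 114 and 138 (1.08 ± 0.09, adjusted p = 7.2e-07).

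Of the 11 lasting regions nearest to a listed cytokine gene, 6 were tested between the genotypes at 18 h. In KO 3 were called higher, a pair by Il6 and 1 by Inhba, and of all 672 lasting regions 9.82% were. In the other lists, 1 of 8 early response, 1 of 5 interferon-response and the 1 chemokine region were called higher. None was among the 6 of the NF-kB system, 5 of metabolism and effector, 3 of feedback regulators, 3 of receptors and 2 of NR4A. Of those, 2, 3, 1, 2 and 0 were tested. The first Il6 region was at 28.6, 18.9 and 33.3 tags in KO and 7.28, 5.55 and 0 in WT (log2 difference 1.39 ± 0.17, adjusted p = 3.2e-05). Near Inhba, which encodes activin A, the values were 44.5, 54.7 and 46.6 against 13.1, 5.27 and 0 (1.94 ± 0.23, adjusted p = 2.2e-05). Outside the lists, an intron of Arhgap22, a Rac regulator, was at 64.8, 60.8 and 54.55 against 0, 5.69 and 12.0 (2.21 ± 0.42, adjusted p = 1.6e-03). This call was lost without replicate 2. By contrast the regions near Gbp7, Socs1 and Tlr1 were not called at 18 h, with 320, 322 and 324 tags in KO at Tlr1 against 297, 293 and 299 in WT. Only 2 calls were lower in KO. The region nearest to Trim5 was listed at 0 in KO against 259, 215 and 257 tags in WT (adjusted p = 8.4e-11). With KO at 0 it could only be called lower. In Abr, KO was at 219, 70.4 and 51.5 against 234, 222 and 223 (-1.18 ± 0.35, adjusted p = 0.030), and this call was lost without replicate 2 or 3.

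**Figure D5:**
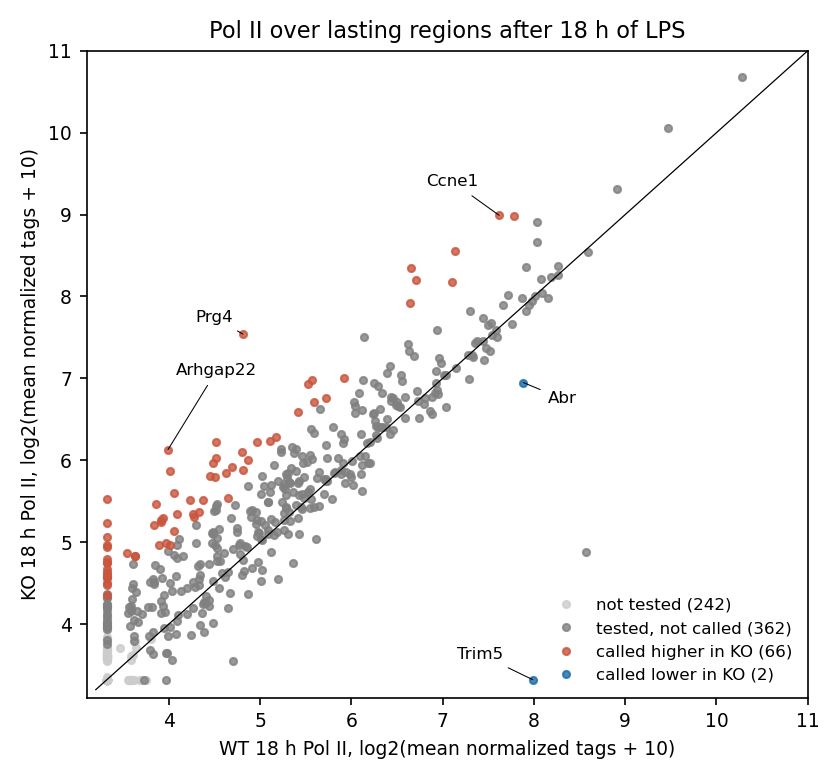
Each point is a lasting region, with the mean Pol II of the 3 WT libraries at 18 h on the x axis and of the 3 KO libraries on the y axis, as log2(mean normalized tags + 10), and the line marks equality. Of the 430 tested regions, 66 are called higher in KO (red) and 2 lower (blue), and Trim5 lies at the bottom because it is listed at 0 in KO.

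The interaction asks whether the Pol II change on LPS itself differed between the genotypes. At 1 h 24 of 351 tested lasting regions were called, 18 with a larger (more positive) change in KO and 6 with a smaller one. Over all tested regions the shares were 2.63% and 0.887%. Centring gave 11 and 10, and leaving out replicate 3 gave 12 in all. At 18 h 64 had a larger change in KO and 3 a smaller one, against 1.85% and 1.83%, centring gave 84 and 1, and a pseudocount of 50 gave 6 and 1. Of the 436 tested, 65 had Pol II in fewer than 2 of 3 WT libraries at 18 h, and 21 of these were among the 64. In the other 371, 43 (11.6%) had a larger and 3 (0.809%) a smaller change, against 1.29% and 2.05% of all regions with Pol II in at least 2 of 3 WT libraries at 18 h. At Prg4, Ccne1 and Il6 all libraries of both genotypes were listed at 0 at 0 h, so the interaction has the size of the difference at 18 h given above. It was called at Prg4 (2.75 ± 0.43, adjusted p = 6.1e-04, lost with a pseudocount of 1), at Ccne1 (1.37 ± 0.10, adjusted p = 5.7e-07) and near Il6 (1.39 ± 0.24, adjusted p = 1.4e-03). The Arhgap22 region changed by 1.28 ± 0.42 in KO and by -1.66 on the log2 scale in WT (2.93 ± 0.60, adjusted p = 4.8e-03), a call that was lost without replicate 2.

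The nearest genes were examined next, with Pol II summed from 500 bp before the start of a gene to 500 bp past its end. The nearest gene by distance need not be the target of a region. Of 601 nearest genes 600 had a value. In WT 179 of 508 tested were higher at 1 h and 103 lower, whereas over all tested genes 10.3% were called higher and 43.3% lower. The median change over all tested genes was -0.82, and with centred libraries the counts were 269 and 53. At 18 h 153 of 516 tested were higher and 57 lower, against 12.7% and 14.1%. The genes higher at both times numbered 89, with 90 higher at 1 h only, 64 at 18 h only and 19 lower at both.

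All 7 early response genes that were nearest to a lasting region were higher at 1 h, and 4 at 18 h. They were Nfkbiz, Tnfaip3, Ptgs2, Dusp1, Dusp2, Il1b and Gadd45b, out of a list of 28 of which 17 were higher and 3 lower at 1 h. At 18 h 6 of the list were higher and 7 lower, and among the 21 nearest to no lasting region 2 were higher and 7 lower. Ptgs2 changed by 5.53 ± 0.19 at 1 h (adjusted p = 1.1e-14) and 5.46 ± 0.19 at 18 h (adjusted p = 2.9e-14). Il1b, in contrast, changed by 5.99 ± 0.13 at 1 h and by 1.09 ± 0.13 at 18 h, and Nfkbiz, an atypical IkB gene, by 4.48 ± 0.06 at 1 h with no call at 18 h. Among 6 nearest cytokine genes of 23 in the list, 5 were higher at 1 h and 3 at 18 h. Il12b went from at most 0.498 tags at 0 h to a mean of 4212 at 1 h (adjusted p = 1.5e-20) and was listed at 0 at 18 h. Of the whole cytokine list 14 were higher at 1 h and 8 at 18 h.

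Interferon-response genes were higher at both times. All 5 nearest ones (Oasl2, Gbp3, Gbp7, Ifih1 and Nlrc5) were called higher at 1 h and at 18 h, and so were 30 and 33 of the 35 listed genes with a value. Mean Pol II of Gbp7 was 33.9 tags at 0 h, 5306 at 1 h and 1147 at 18 h in WT. All 4 nearest genes of the NF-kB system (Tnip3, Birc3, Ripk2 and Tank) were higher at 1 h and 2 at 18 h, and in the list of 30 the counts were 24 and 14. Birc3, with 3 lasting regions, went from a mean of 785 tags to 3411 at 1 h and 2636 at 18 h. Of the metabolism and effector list, 4 genes were nearest (Hif1a, Saa3, Marco and Met), 4 were higher at 1 h and 2 at 18 h, and in the list of 34 the counts were 21 and 19. Mean Pol II of Saa3 was 0, 225 and 1141 tags at 0, 1 and 18 h. Of the listed receptors, Il15ra and Marcks were higher at 1 h, Il15ra at 18 h too, and Tlr1 at neither time, with means of 716, 1221 and 608 tags, and of the 26 listed 12 were higher at 1 h and 8 at 18 h. Ccrl2, the single nearest gene of the chemokine list, was higher at both times, as were 14 of 16 listed genes at 1 h and 3 at 18 h.

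A gene could also fall while a region near it gained the mark. None of the 22 listed AP-1 and ATF factor genes was nearest to a lasting region. Both nearest NR4A genes were lower at 18 h: Nr4a3 changed by -1.77 ± 0.25 (adjusted p = 6.7e-06) and Nr4a2 by -1.17 ± 0.10 (adjusted p = 6.8e-09). Of the 19 feedback regulators 11 were higher and 1 lower at 1 h, and 6 were higher and 6 lower at 18 h. Among the 3 nearest ones, Socs1 was higher at 18 h (2.78 ± 0.10), Zc3h12c, a relative of the mRNA decay factor Regnase-1, at 1 h (3.53 ± 0.11), and Pdcd1lg2, which encodes the checkpoint ligand PD-L2, was lower at 1 h (-1.60 ± 0.15) and higher at 18 h (3.75 ± 0.15). Among all nearest genes the largest falls at 18 h were those of the protocadherin gene Pcdh7 (-6.47 ± 0.14, adjusted p = 3.9e-17), Cdc42ep3 and Calcrl, and the largest falls at 1 h were Prkch (-4.21 ± 0.11, adjusted p = 2.3e-16) and Siglec1, the sialoadhesin gene. Heatr9 and C3 had the largest fitted changes at 18 h. Heatr9 had means of 0, 2951 and 3102 tags at the 3 times, and C3 had 0, 1921 and 1485.

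Between the genotypes 18 of 506 tested nearest genes were higher in KO at 1 h and 11 lower, against 3.50% and 1.25% of all tested genes. Centring turned the split of nearest genes to 9 and 17. At 18 h 24 of 516 tested were higher and 3 lower, against 1.59% and 1.48%, and centring gave 34 and 3. The largest difference at 18 h was Fam3b, a secreted cytokine-like gene, at 9430, 8800 and 9341 tags in KO and 410, 372 and 592 in WT (4.33 ± 0.25, adjusted p = 9.9e-10). Msi2, which encodes an RNA-binding protein, was higher by 2.73 ± 0.12. Il6 was higher by 1.85 ± 0.10 (adjusted p = 3.0e-10), Ptgs2 by 1.15 ± 0.19 (adjusted p = 2.2e-04) and Gbp7 by 1.42 ± 0.27 (adjusted p = 1.0e-03), where the KO libraries stood at 4322, 1485 and 4555 tags against a WT mean of 1147. The scavenger receptor gene Marco was at 27.7, 31.2 and 63.9 tags in KO and 0 in WT. The 3 lower genes were Trim5 (-3.70 ± 0.13, adjusted p = 1.3e-12), at 22.0, 35.5 and 23.1 tags against a WT mean of 462, the Fc receptor-like gene Fcrl5 (-2.27 ± 0.39, adjusted p = 3.5e-04) and Fignl2 (-1.27 ± 0.13, adjusted p = 1.3e-06). Trim5 was also listed at 0 in KO at 0 and 1 h. At 1 h Fcrl5 (-4.19 ± 0.38, adjusted p = 2.4e-07), Nlrc5 (-1.23 ± 0.10), C3 (-1.09 ± 0.07) and the interferon-inducible gene Ifi209 (-2.17 ± 0.12) were lower in KO, and Slc16a1, a lactate transporter gene, was higher (2.41 ± 0.15, adjusted p = 2.0e-09). Of the 35 interferon-response genes, 6 were lower in KO at 1 h, Nlrc5 alone among the 5 nearest ones, and 0 higher. Of the 23 cytokine genes, 3 were higher at 18 h, 2 of them among the 6 nearest.

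The libraries themselves bear on these values. Macrophage markers were present in all 18 H3K27ac libraries, with 9 of 9 above 0 at their gene starts in every library and a sum of 5868 to 8643 tags. Some listed markers of T cells (Cd3e, Cd3d, Cd4 and Cd8a), B cells (Cd79a and Pax5), neutrophils (Mpo, S100a9 and Ly6g) and fibroblasts (Col1a1, Col1a2 and Dcn) were at 0 in all 18. Pol II over Cd3d, Cd4 and Cd79a was above 0 in all 18 Pol II libraries. Others on those lists were not at 0 in H3K27ac: 1 of 5 T cell markers, 2 of 4 B cell markers, 3 of 6 neutrophil markers, 1 of 4 fibroblast markers and 2 of 4 dendritic cell markers were above 0 in some library. Their sums ran from 0 to 18.1, 106.2 to 363.2, 321.9 to 788.2, 0 to 6.60 and 195.6 to 601.5 tags, and Flt3 and Siglech of the dendritic cell list were at 0. The part of other cells in the results was not tested. Pol II over Nr4a1 was at 189, 188 and 208 tags in WT and 87.8, 76.1 and 70.2 in KO at 0 h, at 23.0 to 30.4 and 33.5 to 39.0 at 1 h, and at 0 to 7.46 and 0 at 18 h. The extent of the deletion was not analysed here, so signal left over the locus does not check the genotype labels. Pol II libraries held 21.7 to 36.1 M tags and inputs 25.6 to 45.3 M. All but 94 lasting regions overlapped a region of at least 1 input library. Input regions overlapped 164, 399 and 506 of them at 0, 1 and 18 h in WT (24.4%, 59.4% and 75.3%). In KO they overlapped 250, 407 and 109 (37.2%, 60.6% and 16.2%). Over all distal regions the shares were 39.0%, 50.6% and 56.1% in WT and 50.0%, 52.9% and 12.9% in KO. The KO input at 18 h held 27554 regions, against 64725 to 108461 in the other inputs. Among the 94 that overlapped no input region, 71 rose in KO H3K27ac at 18 h against 0 h, and 3 (3.19%; 47 were tested) were called in Pol II between the genotypes at 18 h, all higher in KO. Of all 672 lasting regions 9.82% were called higher there. The part of input signal in the other results was not tested.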

How the data were processed

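ChIP-seq of H3K27ac and Pol II and input were measured in 42 libraries. Per the submitters' notes and the study's methods, reads were trimmed (Skewer) and placed on mm10 (HISAT2 2.1.0) by the authors, who called broad regions in each library alone with HOMER, without input as control. The deposited signal is the normalized tag count of a region, per 10 M tags. It is no count of reads, so no count model was used.

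WT H3K27ac regions were merged on overlap. The tags of each library's own regions were shared out to merged regions by overlap, and a merged region without any was set to 0. Gene models were GENCODE vM21 (GRCm38), and sequence came from RefSeq GRCm38.p6. log2(tags + 10) was compared with limma 3.58.1 (R 4.3.3; moderated variance with trend) in 9 KO H3K27ac libraries and in 18 Pol II libraries with 6 group means. Features entered a test when 2 or more of the 3 libraries of any group in the comparison had them, with Benjamini-Hochberg adjustment over all tested features and a call at adjusted p under 0.05 and absolute log2 change over 1. These changes understate those of low values. The fit was tested on simulated data, in which only features with higher mean values were changed and the filter was left out. Lasting regions at or near 0 in a group are not covered by that test. Python 3.11.15, pandas 2.3.3, numpy 2.4.6 and matplotlib 3.10.9 did the rest.

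The members and gene lists were chosen with earlier results of these data known. Named regions are the 10 highest in WT, up to 3 per gene list, the 2 largest non-overlapping changes in each direction of a comparison, regions at 0 in KO or found in all KO 0 h libraries, and the edges of the rule. Genes are those of the named regions and the 5 largest changes in each direction. Genes with 3 regions were named after their values were seen. Some items that the rule names are not reported here. Same-numbered replicates were not paired. Alternatives covered the pseudocount (1 and 50), the filter, centring, a replicate block, each replicate left out, region bounds, input overlap and the settings of the rule.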

Additional observations from a re-analysis of the deposited data

Results flagged for a closer look

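The Pol II change on LPS differed between the genotypes by the interaction term of the limma fit. It did so in 24 of 351 tested lasting regions at 1 h and in 67 of 436 at 18 h. At 1 h the region near Gbp3 gained less Pol II in KO than in WT, with an interaction of -3.28 on the log2(tags + 10) scale. The Gm45261 region did so too (-1.69), with 23.4, 22.3 and 21.0 tags in WT at 1 h and 0 in KO. The region nearest to Ssr3 gained more in KO (1.70), as did that near Stam2 (1.69), which held 29.4, 9.02 and 13.2 tags in KO at 1 h. Fitted values against groups listed at 0 depend on the pseudocount and are no bound. With a pseudocount of 50 the Ssr3, Gm45261 and Stam2 calls were lost, and the Stam2 call also without replicate 2 or 3.

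At 18 h the region nearest to Trim5 had an interaction of -4.31 and was listed at 0 in all KO Pol II libraries. The regions near Prg4 (2.75) and in Arhgap22 (2.93) were called in the other direction, the latter with a rise in KO and a fall in WT. The Prg4 call was lost with a pseudocount of 1 and the Arhgap22 call without replicate 2. The region nearest to Dnaic2 (-1.11) held 31.3, 31.1 and 30.6 tags in WT at 18 h and 19.96, 10.7 and 19.8 in KO, and its call was lost with a pseudocount of 50, with centred libraries and without replicate 1 or 3.

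From 1 to 18 h, H3K27ac in 10 lasting regions was lower in each WT library and higher in each KO library at the later time, which is 1.49% of them against 0.116% of all distal regions. They are nearest to Ptgs2, Prg4, Slamf1, Apaf1, Slc28a3, Acaa2, Stam2, Tmem33, Gpr4 and Rap2c, and this difference was not tested.

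Input libraries, which entered no comparison, had regions over lasting regions as well. In WT they overlapped 164 at 0 h, 399 at 1 h and 506 at 18 h (24.4%, 59.4% and 75.3%), and in KO 250, 407 and 109 (37.2%, 60.6% and 16.2%). Of all distal regions they overlapped 39.0%, 50.6% and 56.1% in WT and 50.0%, 52.9% and 12.9% in KO. The KO input library at 18 h held 27554 regions, against 64725 to 108461 in the other inputs.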

How the results depend on the processing

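Of the single regions and genes tested under alternatives, 684 values stayed on their side of the threshold, 35 called ones lost the call and 0 changed direction. Of the counts and shares, 132 stayed within 1.5 times (shares within their binomial interval) and 43 moved, and the cause was not tested beyond what the setting itself changes. With a pseudocount of 50 the counts of lasting regions called were 88, 245 and 133 in KO H3K27ac (1 h against 0 h, 18 h against 0 h, 18 h against 1 h), 67 and 66 in WT Pol II and 72 and 89 in KO Pol II (1 and 18 h against 0 h), 1, 2 and 8 between the genotypes at 0, 1 and 18 h, 1 and 7 for the interaction, and 13 and 16 for nearest genes between the genotypes. With a pseudocount of 1 the genotype counts at 0 and 1 h were 11 and 52, and centring gave 18 at 1 h. Over the 94 regions without input overlap the same counts were 26, 71 and 34, then 17 and 19, 22 and 22, then 0, 6 and 3 by limma, and 3 and 4. The rule gave 368 regions without those overlapping an input region, 1165 when 2 of 3 libraries sufficed and 822 to 1082 without a replicate. Found in KO were 273 when 0.5 of a region had to be covered and 180 under a common floor (under which the rule itself gave 697 regions), and Pol II overlapped 241 with that coverage. Outside repeats AP-1 letters were in 20.2% and ISRE letters in 16.7%. Without a replicate the counts in KO H3K27ac ranged from 202 to 345, 394 to 616 and 135 to 424, between the genotypes from 2 to 6, 23 to 35 and 63 to 66, for the interaction from 12 to 21 and 50 to 60, and for nearest genes between the genotypes from 30 to 32 and 25 to 31. Same-numbered replicates did not deviate together (correlations of -0.358 to 0.0449 over the 4 sets of libraries). With a replicate block the counts were 312, 528 and 248, 166 and 196, 186 and 269, 4, 32 and 68, 25 and 67, and for nearest genes 282, 210, 29 and 27, all within 1.5 times. Regions near the lowest tag density that a library reports can be at 0 for want of depth, which ranged from 13.5 to 55.4 M tags, so 0 is no measure of absence.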
